A study of Homo sapiens with 24 samples.

Results

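The aryl hydrocarbon receptor (AHR) battery was followed after 24 h of kinase inhibition in AGS, a long-established cell line grown from a human gastric adenocarcinoma. It comprised 7 of the 23368 genes in the count table: CYP1A1, CYP1B1, AHR, AHRR, ARNT, TIPARP and ALDH3A1. The rows were selected by symbol, and 6 of the 7 passed the filter on low counts, which left 13947 genes for testing. CYP1A1 was chosen for its measured difference between the combination PI103+PD0325901 and the mean of its single agents. Its values in those 3 groups are therefore descriptions without a test. The other 6 genes were added for their known roles in the pathway, with earlier results of these data known.

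Each of 6 groups held 4 libraries, and each replicate number was also the batch in the labels. All cells were labelled wild type and grown in Ham's F12 medium with fetal calf serum. The controls were labelled as receiving no treatment. PI103, an inhibitor of class I PI3K and mTOR, was given at 0.7 µM. PD0325901, a MEK inhibitor, was given at 0.035 µM. The inhibitor of TAK1 was (5Z)-7-oxozeaenol at 0.5 µM, oxozeaenol for short. The combinations PI103+oxozeaenol and PI103+PD0325901 held each agent at 50% of its single-agent concentration, so a combination and its single agents differ in dose as well as in number of agents. The series addresses drug-induced metabolic change. A single line was studied at a single time, and the measurements are transcript levels in bulk culture, where fewer cells of a kind and less RNA per cell cannot be told apart.

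AHR is a ligand-activated transcription factor of the bHLH-PAS family. It waits in the cytoplasm with the chaperone HSP90 and its cochaperone p23, and after binding a ligand such as a planar aromatic compound or a tryptophan metabolite it enters the nucleus, pairs with ARNT and binds xenobiotic response elements with the core GCGTG. CYP1A1, a haem monooxygenase of xenobiotic metabolism, is its best known target. AHRR, a repressor that competes for ARNT, and TIPARP, an ADP-ribosyltransferase that acts on AHR, are targets that feed back on the receptor.

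Promoters are printed for the target CYP1A1 and the feedback genes TIPARP and AHRR, because their transcripts moved differently in the libraries. Each is the 250 bases before a RefSeq start site (GRCh38.p14), 5′ to 3′ on the gene's strand, with GCGTG or its reverse complement CACGC in capitals. RefSeq entries were matched for 5 of the 7 genes, and CYP1B1 and ALDH3A1 are named only.
CYP1A1, chr15:74725529-74725778, minus strand: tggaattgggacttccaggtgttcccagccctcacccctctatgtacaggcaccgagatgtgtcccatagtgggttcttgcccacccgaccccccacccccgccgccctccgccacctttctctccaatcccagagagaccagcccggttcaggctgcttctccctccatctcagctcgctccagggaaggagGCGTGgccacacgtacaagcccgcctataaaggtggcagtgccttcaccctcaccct
TIPARP, chr3:156674340-156674589, plus strand: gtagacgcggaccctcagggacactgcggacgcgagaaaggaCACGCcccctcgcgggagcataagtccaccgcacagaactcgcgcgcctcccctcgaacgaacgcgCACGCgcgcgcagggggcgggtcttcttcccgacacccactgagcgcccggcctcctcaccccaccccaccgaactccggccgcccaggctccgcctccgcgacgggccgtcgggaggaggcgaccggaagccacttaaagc
AHRR, chr5:321464-321713, plus strand: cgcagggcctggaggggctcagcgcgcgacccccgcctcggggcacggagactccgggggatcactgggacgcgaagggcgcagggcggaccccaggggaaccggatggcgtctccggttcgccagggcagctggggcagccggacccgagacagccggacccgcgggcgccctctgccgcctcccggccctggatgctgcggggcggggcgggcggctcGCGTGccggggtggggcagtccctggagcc
The RefSeq windows used number 1 for CYP1A1, 3 for TIPARP and 2 for AHRR, and the first of each is shown. The CYP1A1 window held 1 match, starting at -57 from the start site. The printed TIPARP window held 2, at -208 and -142, both on the opposite strand, and the printed AHRR window held 1, at -30. The other TIPARP windows held 0, and the second AHRR window held 2. The match in the printed AHRR window was also the only one in the 8 windows of these genes to the longer TNGCGTG, which starts at -32 and contains it. The windows of AHR and ARNT held no GCGTG. Over 35116 RefSeq windows of this length, searched on both strands, 32.2% held GCGTG and 4.52% held TNGCGTG. A match describes the letters of the window and is not a measured binding site. Sequence farther upstream was not searched, so these counts do not cover all response elements of a gene.

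By GENCODE v29 on GRCh38, the genes lie at chr15:74719542-74725610 (CYP1A1, minus strand), chr2:38066973-38109902 (CYP1B1, minus), chr7:16916359-17346152 (AHR, plus) and chr5:304176-438291 (AHRR, plus). ARNT lies at chr1:150809705-150876768 (minus), TIPARP at chr3:156673235-156706770 (plus) and ALDH3A1 at chr17:19737984-19748943 (minus). Overlapping annotation touches 29.4% of the AHR exon length on its own strand (AC019117.2) and 3.34% on the other strand (AC073332.1). PDCD6 shares 3.18% of the AHRR exon length on the same strand, and small opposite-strand overlaps exist at CYP1B1 (11.3%, CYP1B1-AS1), ALDH3A1 (2.5%, AC005722.3) and TIPARP (0.733%, TIPARP-AS1). How the counting treated strand and overlap is not given in the sources used here, so AHR and AHRR levels carry that uncertainty. CYP1A1 and ARNT shared no exon bases with another gene.

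Libraries held 38057638 to 84226380 gene counts. Epithelial markers were high throughout, with EPCAM at 620 to 988 CPM (gene counts scaled to library size) and KRT8 at 2120 to 3590 CPM, while the leukocyte marker PTPRC never exceeded 7 counts and COL1A2 and CD3E never exceeded 1. The summed level of 6 markers of other cell types was set mostly by COL1A1, and ran from 14 to 17.2 CPM in control, 32.2 to 34.3 in PI103, 17.5 to 21.1 in PD0325901, 8.11 to 9.77 in oxozeaenol, 8.88 to 10.9 in PI103+oxozeaenol and 20.9 to 24.6 in PI103+PD0325901. It was highest in the group with the lowest CYP1A1, and its part in the results was not tested.

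The receptor transcript AHR was lower than control with every treatment, as was the feedback transcript TIPARP. ALDH3A1 was higher with every treatment. AHRR rose with PD0325901 and PI103+PD0325901, and passed with oxozeaenol in a call that most fits leaving out 1 library did not keep. ARNT fell only where oxozeaenol was present among the 5 comparisons with control. CYP1A1 was 27.4-fold lower with PI103 and near control with PD0325901. The members therefore did not move in 1 direction in any treatment group.

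Per kilobase of GENCODE exon sequence, TIPARP had the highest control level at 15.4 ± 0.703 CPM per kb (SD, n = 4), followed by ARNT at 12.8 ± 0.472 and AHR at 11.4 ± 1.53. ALDH3A1 stood at 4.72 ± 0.298 and CYP1A1 at 3.69 ± 0.64 CPM per kb. AHRR was far lower, at 0.0406 ± 0.00779 CPM per kb. CYP1B1, the close relative of CYP1A1 in the CYP1 family, had 1 count in all 24 libraries together, in replicate 2 of oxozeaenol. A floor of 3 counts per library corresponds to 0.0366 to 0.0851 CPM, so CYP1B1 was not detectable at this depth and no fold is given.

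**Figure D1:**
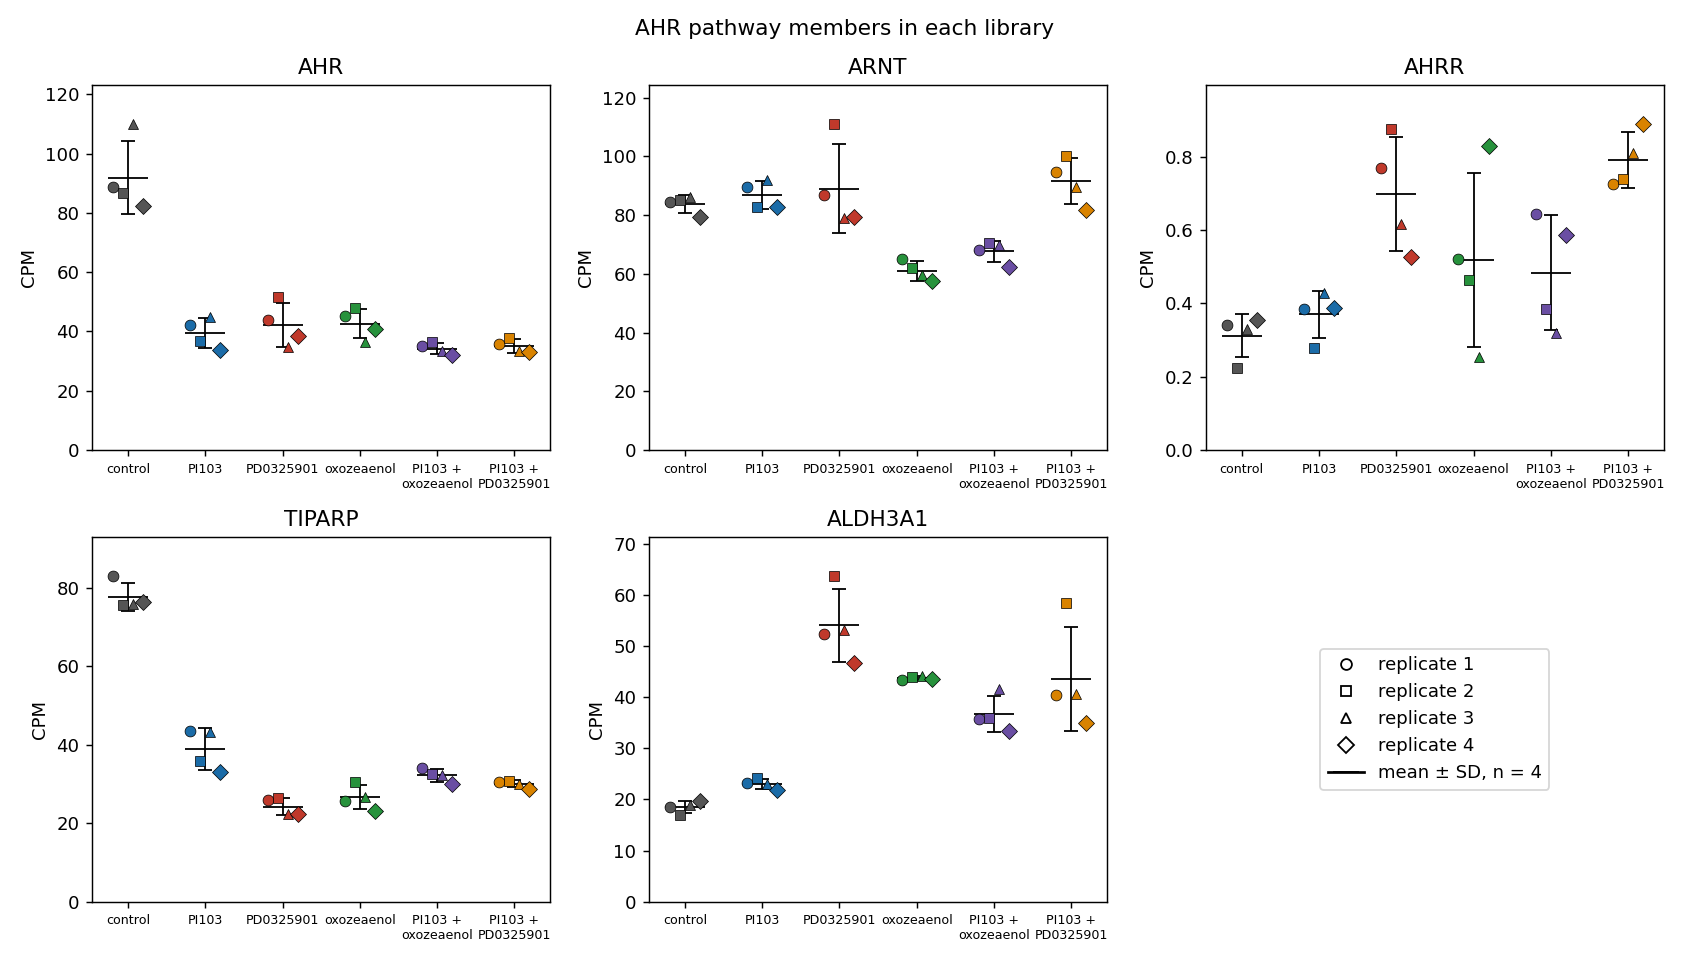
Level of 5 members in each of the 24 libraries, in CPM, by group (4 points per group, with a symbol for each replicate number; lines and bars give the mean ± SD, n = 4). AHR and TIPARP sit below control in all 5 treatments, and ALDH3A1 sits above it.

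AHR itself, the receptor, stood at 88.9, 86.6, 110 and 82.3 CPM in control replicates 1 to 4. With PI103 it was at 42.1, 36.7, 45.0 and 33.9 CPM, and with PD0325901 at 43.8, 51.7, 34.6 and 38.6 CPM. Every treated library of these groups lay below the lowest control library. With oxozeaenol AHR was at 45.1, 47.8, 36.6 and 41.0 CPM. In PI103+oxozeaenol it was at 35.1, 36.4, 33.4 and 32.0 CPM, and in PI103+PD0325901 at 35.8, 37.9, 33.3 and 33.2 CPM. None of the 5 treated groups overlapped control, and AHR was lower in 4 of 4 batches in each. The share of all genes without overlap was not computed, here or for the members below. Between 51.4% and 64.8% of all tested genes passed against control.

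The AHR difference from control, on the log2 scale in the edgeR quasi-likelihood test with Benjamini-Hochberg adjustment over all genes, was -1.22 (SE 0.115, adjusted p = 2.47e-09) for PI103 and -1.13 (SE 0.115, adjusted p = 6.11e-09) for PD0325901. For oxozeaenol it was -1.11 (SE 0.115, adjusted p = 1.39e-08). The combinations gave -1.43 for PI103+oxozeaenol (adjusted p = 1.56e-10) and -1.39 for PI103+PD0325901 (adjusted p = 9.94e-11). Between treatments, AHR passed the edgeR test in 0 of 10 comparisons and DESeq2 in 0, with 4 at an unadjusted p under 0.05. The smallest edgeR adjusted p was 0.06, for PI103+oxozeaenol against oxozeaenol (-0.32), and it was 0.0312 with the replicate as a block.

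ARNT, the partner that AHR needs to bind DNA and that also serves the hypoxia-inducible factors, separated the treatments by oxozeaenol. Control libraries were at 84.4, 85.2, 86.0 and 79.2 CPM, and oxozeaenol libraries at 65.0, 62.0, 59.5 and 57.4 CPM. PI103+oxozeaenol gave 68.0, 70.4, 69.7 and 62.4 CPM. Both groups lay wholly below control. PI103 libraries were at 89.6, 82.7, 91.9 and 82.8 CPM. PD0325901 libraries were at 86.7, 111, 79.1 and 79.4 CPM, and PI103+PD0325901 libraries at 94.8, 100, 89.5 and 81.9 CPM. These 3 groups overlapped control, and replicate 2 was the highest library in both groups with PD0325901.

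ARNT fell by 0.46 on the log2 scale with oxozeaenol (SE 0.0901, edgeR adjusted p = 0.000147) and fell by 0.31 with PI103+oxozeaenol (SE 0.0899, edgeR adjusted p = 0.00516). With PI103 the difference was 0.05 (edgeR adjusted p = 0.653), with PD0325901 0.09 (0.416 as the adjusted p) and with PI103+PD0325901 0.13 (0.206 as the adjusted p). Without replicate 2 of PD0325901 the PD0325901 difference was -0.01. The difference between treatments was tested directly: ARNT was lower with oxozeaenol than with PI103 (-0.51, edgeR adjusted p = 6.33e-05) and than with PD0325901 (-0.54, edgeR adjusted p = 9.42e-05). It was higher in PI103+PD0325901 than in PI103+oxozeaenol (0.44, edgeR adjusted p = 0.000671), and lower in PI103+oxozeaenol than in PI103 (-0.36, edgeR adjusted p = 0.0055).

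TIPARP, the feedback enzyme, was at 83.1, 75.6, 76.0 and 76.5 CPM in control. PI103 gave 43.6, 35.8, 43.3 and 33.1 CPM, and PD0325901 gave 25.9, 26.5, 22.4 and 22.3 CPM. The PI103 libraries lay between the other 2 groups without overlap. Oxozeaenol gave 25.8, 30.6, 26.8 and 23.2 CPM. PI103+oxozeaenol gave 34.1, 32.7, 32.3 and 30.1 CPM, and PI103+PD0325901 gave 30.6, 30.8, 30 and 28.8 CPM. All 20 treated libraries lay below the lowest control library.

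TIPARP fell in all 5 comparisons with control. The log2 difference was -1.0 with PI103 (SE 0.0921, edgeR adjusted p = 1.82e-09), -1.68 with PD0325901 (SE 0.0939, edgeR adjusted p = 1.82e-13) and -1.55 with oxozeaenol (SE 0.0937, edgeR adjusted p = 1.38e-12). In PI103+oxozeaenol it was -1.27 (edgeR adjusted p = 2.84e-11) and in PI103+PD0325901 -1.37 (edgeR adjusted p = 3.05e-12). The level with PD0325901 was lower than with PI103 (-0.68, edgeR adjusted p = 1.39e-06), and so was that with oxozeaenol (-0.55, edgeR adjusted p = 3.37e-05). PI103+PD0325901 lay between its single agents, below PI103 (-0.37, edgeR adjusted p = 0.00218) and above PD0325901 (0.31, edgeR adjusted p = 0.022). The second of these did not pass without PD0325901 replicate 3 (0.0859 as the adjusted p), PD0325901 replicate 4 (0.0711) or PI103+PD0325901 replicate 1 (0.0586), or in a fit to the compared groups only (0.0575).

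PI103+oxozeaenol likewise lay below PI103 for TIPARP (-0.27, edgeR adjusted p = 0.0413) and above oxozeaenol (0.28, edgeR adjusted p = 0.0412). Each of these calls passed in only 2 of 8 fits that left out 1 library. Against PI103 it held only without PI103 replicate 2 or 4, and against oxozeaenol only without oxozeaenol replicate 2 or PI103+oxozeaenol replicate 4. The adjusted p otherwise ran up to 0.165 against PI103 and up to 0.152 against oxozeaenol. The call against oxozeaenol was also lost with no filter (0.0687) and in a fit to the compared groups only (0.0533). Against the mean of the single agents TIPARP differed by 0.00 in PI103+oxozeaenol (edgeR adjusted p = 0.989) and by -0.03 in PI103+PD0325901 (edgeR adjusted p = 0.805).

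AHRR, the repressor, was at 0.34, 0.224, 0.33 and 0.354 CPM in control, which rests on 12 to 27 counts per library. PD0325901 gave 0.769, 0.876, 0.617 and 0.527 CPM, and PI103+PD0325901 gave 0.726, 0.739, 0.81 and 0.889 CPM. Both groups lay wholly above control. PI103 gave 0.384, 0.278, 0.429 and 0.388 CPM. Oxozeaenol gave 0.522, 0.465, 0.255 and 0.83 CPM, and PI103+oxozeaenol gave 0.644, 0.384, 0.32 and 0.587 CPM. These 3 groups overlapped control.

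AHRR rose by 1.14 on the log2 scale with PD0325901 (SE 0.291, edgeR adjusted p = 0.00156) and by 1.32 with PI103+PD0325901 (SE 0.289, edgeR adjusted p = 0.000275). With oxozeaenol it rose by 0.74 (SE 0.298, edgeR adjusted p = 0.0392) and was higher in 3 of 4 batches; that call passed in 3 of 8 fits that left out 1 library, those without control replicate 4, oxozeaenol replicate 2 or oxozeaenol replicate 3. The estimate was lowest, at 0.44, without oxozeaenol replicate 4, the highest library of the group. The call was also lost with no filter on low counts (edgeR adjusted p = 0.0757), in a fit to the compared groups only (0.084) and without all replicate 2 libraries (0.111). The difference was 0.23 for PI103 (edgeR adjusted p = 0.544) and 0.63 for PI103+oxozeaenol (edgeR adjusted p = 0.0755). AHRR was higher with PD0325901 than with PI103 (0.91, edgeR adjusted p = 0.0128), a call that was lost with all replicate 2 libraries left out (0.66, edgeR adjusted p = 0.137). It was also higher in PI103+PD0325901 than in PI103 (1.09, edgeR adjusted p = 0.00385). PI103+PD0325901 stood 0.64 above the mean of its single agents (edgeR adjusted p = 0.0542), with an adjusted p of 0.0382 when the replicate was a block. Against PI103+oxozeaenol it stood 0.69 higher (edgeR adjusted p = 0.0621), with an adjusted p of 0.0391 under the block.

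ALDH3A1, an aldehyde dehydrogenase that is a known AHR target in some tissues, was at 18.5, 16.9, 19.0 and 19.6 CPM in control and at 23.3, 24.1, 23.1 and 21.8 CPM with PI103. PD0325901 gave 52.4, 63.7, 53.2 and 46.7 CPM, and oxozeaenol gave 43.3, 43.9, 44.2 and 43.5 CPM. All libraries of these 3 treatments lay above the highest control library. PI103+oxozeaenol gave 35.7, 35.9, 41.6 and 33.3 CPM, and PI103+PD0325901 gave 40.4, 58.3, 40.7 and 34.9 CPM. Replicate 2 of PI103+PD0325901 was 1.51 times the mean of the other 3 libraries of its group.

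ALDH3A1 rose by 1.54 on the log2 scale with PD0325901 (SE 0.115, edgeR adjusted p = 2.96e-11) and by 1.24 with oxozeaenol (SE 0.115, edgeR adjusted p = 2.37e-09). It rose by 0.98 in PI103+oxozeaenol (edgeR adjusted p = 6.81e-08) and by 1.23 in PI103+PD0325901 (edgeR adjusted p = 7.95e-10). With PI103 it rose by 0.32 (SE 0.114, edgeR adjusted p = 0.0215), a call that was lost without control replicate 2 (adjusted p = 0.0697 by edgeR) or PI103 replicate 2 (adjusted p = 0.0517 by edgeR). PI103 gave a lower level than PD0325901 (1.22 higher with PD0325901, edgeR adjusted p = 3.03e-09) and than oxozeaenol (0.92 higher with oxozeaenol, edgeR adjusted p = 4.3e-07).

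Both combinations held more ALDH3A1 than PI103, by 0.66 in PI103+oxozeaenol (edgeR adjusted p = 0.000128) and by 0.92 in PI103+PD0325901 (edgeR adjusted p = 6.59e-07). PI103+PD0325901 was also 0.30 above the mean of its single agents (edgeR adjusted p = 0.0253). The call was not stable: without replicate 2 of the combination the difference was 0.13 (edgeR adjusted p = 0.322), and without PD0325901 replicate 4 it was 0.27 (edgeR adjusted p = 0.0501). In a fit to the compared groups only the estimate stayed at 0.30, with an edgeR adjusted p of 0.0757. Against PD0325901 the combination was at -0.31 (edgeR adjusted p = 0.0556), with 0.0259 as the adjusted p under the replicate block and -0.48 (edgeR adjusted p = 0.000788) without its replicate 2. Oxozeaenol was lower than PD0325901 by an estimate of -0.30 (edgeR adjusted p = 0.0439), a call that passed in 2 of 8 fits that left out 1 library, those without PD0325901 replicate 1 or 4, and that was lost in a fit to the compared groups only (0.056).

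**Figure D2:**
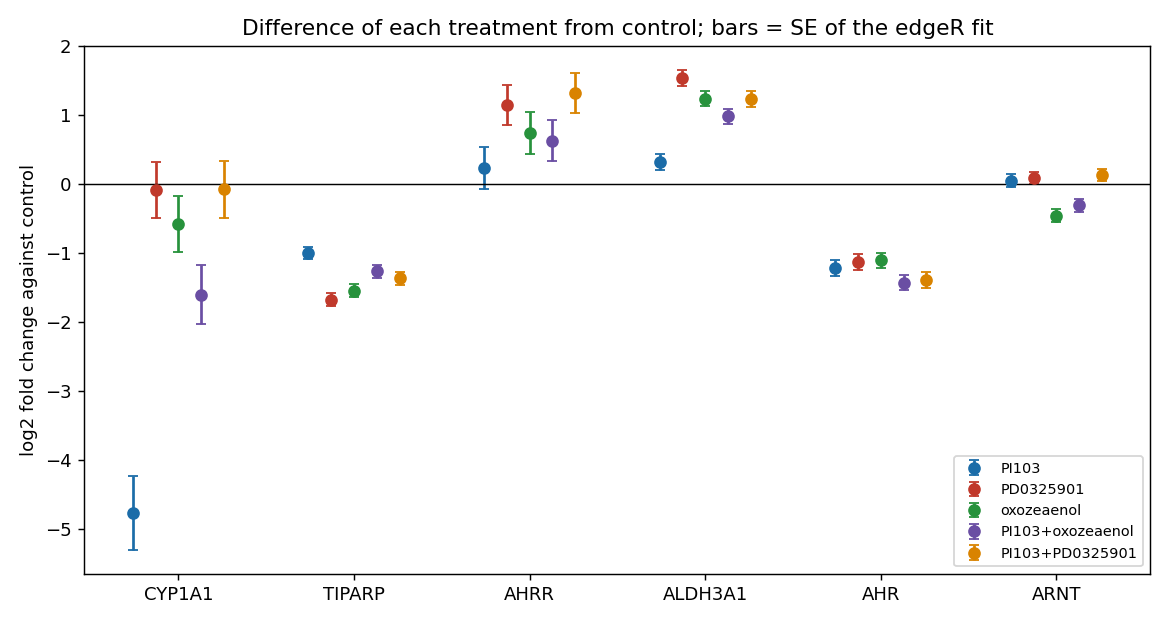
Log2 fold change of each member in each treatment against control, with bars for the SE of the edgeR fit (all 24 libraries; CYP1B1 not fitted). AHR and TIPARP lie below 0 in 5 of 5 treatments and ALDH3A1 above it, while CYP1A1 lies farthest from 0 with PI103 at -4.77.

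Counted without CYP1A1, 3 of the 5 tested members passed against control with PI103 (1 higher, 2 lower), where 51.4% of all tested genes passed. With PD0325901 4 of 5 passed (58.6% of all genes), with oxozeaenol 5 of 5 (51.9%), with PI103+oxozeaenol 4 of 5 (55.6%) and with PI103+PD0325901 4 of 5 (64.8%). So many genes passed that these counts set nothing apart. The median absolute log2 fold change of the 5 members was 0.32 with PI103, beside 0.35 over all genes, and 1.14 with PD0325901, beside 0.40. It was 1.11 with oxozeaenol (0.34 over all genes), 0.98 with PI103+oxozeaenol (0.37) and 1.32 with PI103+PD0325901 (0.47).

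Between treatments the background was lower. Of the 5 members, 3 passed for PD0325901 against PI103 (44.5% of all genes), 3 for oxozeaenol against PI103 (43.1%) and 2 for oxozeaenol against PD0325901 (28.5%). Against PI103, 3 passed in PI103+oxozeaenol (18.3% of all genes) and 3 in PI103+PD0325901 (38.7%). Only TIPARP passed for PI103+oxozeaenol against oxozeaenol (14.9% of all genes) and for PI103+PD0325901 against PD0325901 (18.1%). Only ARNT passed between the combinations (29.9%). Against the mean of the single agents, 0 of 5 passed in PI103+oxozeaenol with edgeR and 0 with DESeq2, with 2 at an unadjusted p under 0.05, where 3.98% of all genes passed. In PI103+PD0325901 only ALDH3A1 passed (22% of all genes).

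CYP1A1 had the widest range of the members. Control libraries were at 14.3, 14, 9.53 and 12.8 CPM (mean 12.7 ± 2.2, SD, n = 4), or 754 to 974 counts per library. PI103 libraries were at 0.477, 0.503, 0.411 and 0.452 CPM (0.461 ± 0.0389), or 24 to 31 counts. PD0325901 libraries were at 12.7, 19.5, 7.94 and 7.41 CPM (11.9 ± 5.58). PI103 lay wholly below every other group, and PD0325901 spanned the control range on both sides. Oxozeaenol gave 6.21, 9.14, 6.24 and 12.2 CPM (8.44 ± 2.84), and PI103+oxozeaenol gave 3.00, 5.29, 3.52 and 4.83 CPM (4.16 ± 1.08). PI103+PD0325901 gave 6.03, 29.4, 5.82 and 6.67 CPM (12.0 ± 11.6). Its replicate 2 was the highest of all 24 libraries, while the other 3 lay below every control library.

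**Figure D3:**
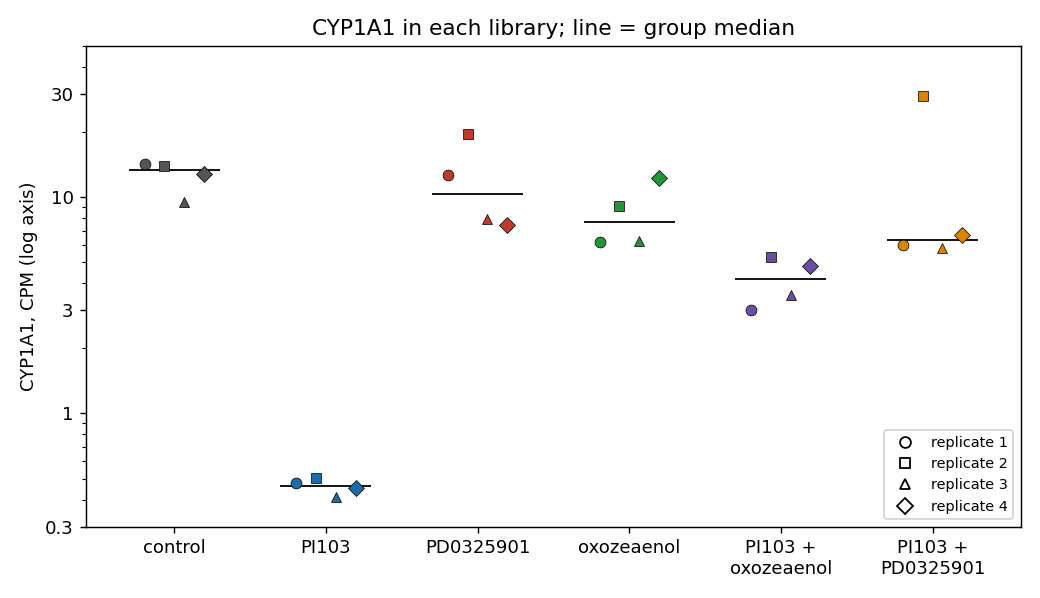
CYP1A1 level in each of the 24 libraries, in CPM on a log axis, by group, with a symbol for each replicate number and a line at the group median. PI103 libraries lie at 0.411 to 0.503 CPM, below all others, and replicate 2 of PI103+PD0325901 at 29.4 CPM stands above the 3 others of its group.

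By group mean the order of CYP1A1 levels was control, PI103+PD0325901, PD0325901, oxozeaenol, PI103+oxozeaenol and PI103. The first 4 groups overlapped each with its neighbour. Oxozeaenol and PI103+oxozeaenol did not overlap, nor did PI103+oxozeaenol and PI103. Without its replicate 2, PI103+PD0325901 averaged 6.17 ± 0.443 CPM (SD, n = 3), between oxozeaenol and PI103+oxozeaenol.

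CYP1A1 was 27.4-fold lower with PI103 than in control (log2 -4.77, SE 0.537), and the difference within the 4 batches ran from -4.82 to -4.43. With PD0325901 the estimate was -0.09 (SE 0.408), and -0.41 without PD0325901 replicate 2. Neither value carries a test, since the choice of CYP1A1 used these libraries. Of the comparisons that the choice did not use, PI103+oxozeaenol against control passed: CYP1A1 fell by 1.61 on the log2 scale (3.05-fold lower, SE 0.427, edgeR adjusted p = 0.00293) and was lower in 4 of 4 batches. With oxozeaenol alone the estimate was -0.58 (SE 0.412, edgeR adjusted p = 0.251), lower in 4 of 4 batches, with an adjusted p of 0.0401 in a fit to the compared groups only. PI103+oxozeaenol against oxozeaenol gave -1.03 (SE 0.427, edgeR adjusted p = 0.108), with an adjusted p of 0.0274 under the replicate block and 0.0186 in a fit to the compared groups only. The main fit and the block took their spread also from the libraries that the choice used. With all replicate 2 libraries left out, an alternative added after seeing the data, the edgeR adjusted p was 2.36e-05 for PI103+oxozeaenol against control. It was 0.0692 for oxozeaenol against control and 0.00817 for PI103+oxozeaenol against oxozeaenol.

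Against PI103 alone, CYP1A1 was 8.96-fold higher in PI103+oxozeaenol (log2 3.16, SE 0.539) and 25.8-fold higher in PI103+PD0325901 (log2 4.69). The second value was 3.73 without replicate 2 of the combination. PI103 entered each combination at 50% of its single-agent concentration, and the effect of dose cannot be told apart from that of the second agent. PI103+oxozeaenol stood 1.07 (SE 0.402) above the mean of its single agents taken on the log2 scale. On the CPM scale the direction turned, with 4.16 CPM in the combination and 4.45 CPM as the mean of its single agents. PI103+PD0325901 stood 2.35 above its own log2 mean (SE 0.379), and 1.40 without its replicate 2. On the CPM scale it was at 12.0 against 6.17, and at 6.17 against 6.17 without its replicate 2. That equality comes from a removal on 1 side only, since the mean of the single agents kept their replicate 2. PD0325901 replicate 2 was also high, at 19.5 CPM beside 12.7, 7.94 and 7.41 CPM, so the equal values do not show an absent excess. Against control that combination was at -0.08, and at -1.04 without replicate 2. Against PD0325901 it moved from 0.01 to -0.94, and against PI103+oxozeaenol from 1.53 to 0.57. All of these are descriptions without a test.

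Replicate 2 of PI103+PD0325901 was 4.76 times the mean of the other 3 libraries of its group in CYP1A1. On the log2 scale CYP1A1 stood 2.25 above those libraries, 3rd of 11625 ranked genes. The choice of CYP1A1 used this library, so its rank is a description and not a test. HKDC1, a hexokinase family gene, came first at 2.89, with 5.26 CPM against 0.492 to 0.869 CPM. PDZK1, a scaffold of epithelial transporters, came next at 2.34, with 5.88 CPM against 1.01 to 1.31 CPM. PDZK1IP1 stood 1.99 higher, with 46.7 CPM against 11.2 to 12.7 CPM. In all, 89 genes stood over 1 above and 149 over 1 below the other 3 libraries, so this library departed from its group in more than CYP1A1. Such a departure was not particular to it. PD0325901 replicate 2 had 55 above and 85 below, and oxozeaenol replicate 4 had 164 above and 27 below, while most other libraries had fewer. Among the members ALDH3A1 stood 0.60 higher there, ARNT 0.18, AHR 0.15 and TIPARP 0.05, and AHRR was at 0.914 times the mean of the others.

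The second batch was not high in this group alone. CYP1A1 in replicate 2 stood above the mean of the other 3 replicates in 6 of 6 groups, by 0.16 to 2.25 on the log2 scale. In replicate 3 it stood below that mean in 6 of 6, by -0.86 to -0.20. The 2.25 is the high library itself, and the next largest was 1.1, in PD0325901. Each library is set against the other 3 of its group, so the library at 2.25 lowers its groupmates. In PI103+PD0325901 replicates 1, 3 and 4 stood at -0.79, -0.86 and -0.6, though at a similar 6.03, 5.82 and 6.67 CPM. The share of all genes with 1 sign in 6 of 6 groups was not computed. AHR, ARNT and TIPARP in replicate 4 stood below the mean of the other 3 replicates in 6 of 6 groups, by at most -0.28, -0.21 and -0.30. Whether batch accounts for the high library was not tested.

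**Figure D4:**
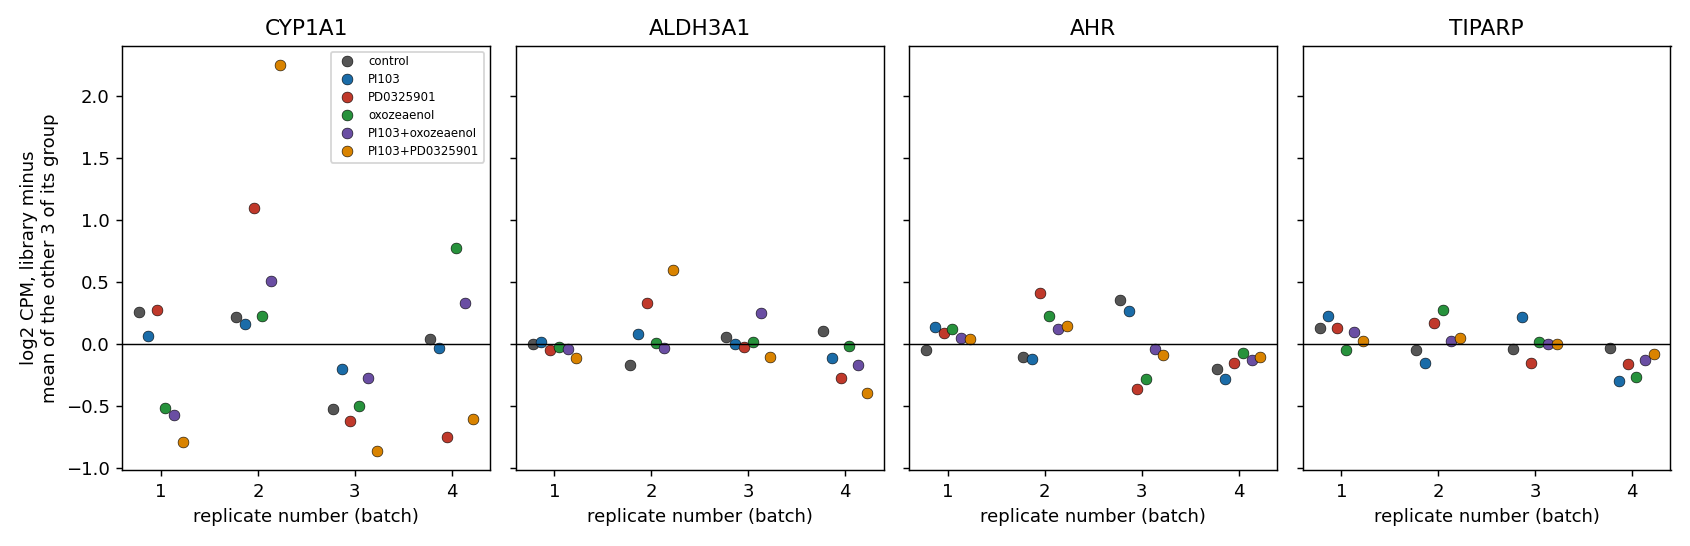
Deviation of each library from the mean of the other 3 of its group on the log2 CPM scale, by replicate number (the batch), for CYP1A1, ALDH3A1, AHR and TIPARP, with a colour for each group. CYP1A1 lies above 0 in replicate 2 in 6 of 6 groups, up to 2.25, and below 0 in replicate 3 in 6 of 6. The library at 2.25 lowers the deviations of the other 3 in its group.

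The 5 genes whose log2 CPM followed CYP1A1 most closely over the 24 libraries, of 11624 ranked, were MB21D2 (Pearson r 0.934), LOC100505633 (0.924), ZHX3 (0.903), FADS3 (0.898) and ST6GALNAC1 (0.896). The libraries share groups, batches and depth, so r is a description. The same 5 genes led without replicate 2 of PI103+PD0325901, with r from 0.898 to 0.927. Each had its lowest group mean with PI103. The ranking itself favours such genes, since CYP1A1 was far lowest there, so this low is not a separate result. MB21D2 averaged 63.3 CPM in control, 31.1 with PI103, 76.8 with PD0325901, 56.4 with oxozeaenol, 50.1 in PI103+oxozeaenol and 70.0 in PI103+PD0325901. ST6GALNAC1, a sialyltransferase, averaged 12.9, 4.40, 11.4, 10.4, 6.41 and 7.91 CPM in the same order. Their differences with PI103 were smaller than that of CYP1A1, at -1.03 for MB21D2, -1.69 for LOC100505633 and -1.55 for ST6GALNAC1. The other members were not close to CYP1A1 by this measure, with r of 0.397 for ALDH3A1, 0.352 for AHR, 0.009 for TIPARP and -0.009 for ARNT.

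Other known AHR targets were read from a list of 13 genes, of which GSTA2 and VAV3 did not pass the filter. Of the 11 tested, 1 rose and 5 fell with PI103, 3 rose and 5 fell with PD0325901, and 5 rose and 5 fell with oxozeaenol. In PI103+oxozeaenol 3 rose and 5 fell, and in PI103+PD0325901 5 rose and 5 fell. DESeq2 called 0 as higher with PI103 and 4 with oxozeaenol. Of all tested genes, 26.2% rose and 25.2% fell with PI103, 28.7% rose and 29.9% fell with PD0325901, and 25.7% rose and 26.1% fell with oxozeaenol. In PI103+oxozeaenol 27.7% rose and 27.9% fell, and in PI103+PD0325901 32.2% rose and 32.6% fell. The list medians were -0.63, 0.59, 0.54, 0.22 and 0.34 on the log2 scale in that order, while those of all genes lay between -0.02 and 0.02. NQO1, a quinone reductase shared with the NRF2 pathway, was at 458 ± 21.7 CPM in control (SD, n = 4). It rose by 0.59 with PD0325901 (edgeR adjusted p = 6.24e-06), 0.54 with oxozeaenol (3.15e-05), 0.26 in PI103+oxozeaenol (0.0209) and 0.34 in PI103+PD0325901 (0.00276), and stood at 0.13 with PI103 (0.252).

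UGT1A6, a glucuronosyltransferase, fell by 0.63 with PI103 (edgeR adjusted p = 2.65e-06) from 70.0 ± 5.87 CPM (SD, n = 4). It rose by 0.67 with PD0325901 (6.94e-07), 0.61 with oxozeaenol (3.95e-06), 0.22 in PI103+oxozeaenol (0.0381) and 0.43 in PI103+PD0325901 (0.000173). UGT1A1 shares its last exons with UGT1A6, which leaves the split of reads between them uncertain. It was at 0.101 CPM in control and passed with oxozeaenol (1.34, 0.0349 as the edgeR adjusted p) and PI103+PD0325901 (1.28, 0.034 as the adjusted p). CYP1A2, the neighbour and paralog of CYP1A1, was at 0.132 ± 0.0296 CPM in control (SD, n = 4) and had 363 counts in all libraries. It passed as higher with PI103 (1.00, edgeR adjusted p = 0.0408, a call lost with DESeq2), where CYP1A1 was lowest, and with oxozeaenol (0.99, 0.0458), PI103+oxozeaenol (1.23, 0.0109) and PI103+PD0325901 (1.13, 0.0155). With PD0325901 it stood at 0.69 (0.16 as the adjusted p).

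SLC7A5, which imports tryptophan and other large neutral amino acids, fell in all 5 comparisons with control, from 996 ± 99.9 CPM (SD, n = 4) to 186 ± 24.6 CPM with PI103 (log2 -2.42, edgeR adjusted p = 1.85e-11) and to 497 ± 93.3 CPM with oxozeaenol (-1, 1.02e-05). SERPINB2, a protease inhibitor, fell from 10.9 ± 3.66 CPM to 0.866 ± 0.353 CPM with PI103 and to 0.122 ± 0.0472 CPM in PI103+PD0325901 (SD, n = 4), passing in all 5. NFE2L2, which encodes NRF2, fell in all 5, with log2 differences from -1.10 to -0.97. CYP2S1, a cytochrome P450, fell with PD0325901 (-0.79), oxozeaenol (-0.50), PI103+oxozeaenol (-0.43) and PI103+PD0325901 (-0.82), and stood at -0.25 with PI103 (edgeR adjusted p = 0.124). ABCG2, an efflux transporter, passed as lower in all 5 from 0.476 CPM in control, near the floor of detection in the treated groups. GSTA1 was near 0 in control (0.0145 CPM) and averaged 0.813 CPM with PD0325901, 0.227 with oxozeaenol and 0.181 in PI103+PD0325901, where it passed. Its paralog GSTA2 can share its reads. EREG, a growth factor at 0.103 CPM in control, stood between -0.24 and 0.79, with edgeR adjusted p from 0.0792 to 0.659.

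Of 14 tested genes of the AHR complex and its coregulators, 4 rose and 3 fell with PI103, 2 rose and 5 fell with PD0325901, and 0 rose and 3 fell with oxozeaenol. In PI103+oxozeaenol 2 rose and 4 fell, and in PI103+PD0325901 1 rose and 4 fell. Of all tested genes, 25.7% to 32.2% rose and 25.2% to 32.6% fell over the same 5 treatments. Counts near these shares set nothing apart, here or in the lists that follow. Wherever this list or a later one had 0 rising genes by edgeR, DESeq2 also gave 0, and 0 rose at an unadjusted p under 0.05. MED1, a Mediator subunit, fell in all 5, with log2 differences from -0.70 to -0.42. PTGES3, the p23 cochaperone of the cytoplasmic complex, fell by 0.49 with PD0325901 (edgeR adjusted p = 0.000406) and fell by 0.69 in PI103+PD0325901 (5.25e-06). It fell by 0.26 with PI103 (0.0484) and fell by 0.27 in PI103+oxozeaenol (0.0378), and stood at -0.19 with oxozeaenol (0.152).

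Of 9 tested other bHLH-PAS factors, 4, 5, 4, 6 and 6 fell with PI103, PD0325901, oxozeaenol, PI103+oxozeaenol and PI103+PD0325901, and 0, 2, 1, 2 and 1 rose. For this list and the next, the background over all tested genes was 25.2% to 32.6% falling and 25.7% to 32.2% rising. ARNTL, the circadian partner of CLOCK, fell by 1.40 with PI103 (edgeR adjusted p = 1.83e-08) and fell by 0.38 with PD0325901 (0.0277). SIM2 fell by 0.98 with PD0325901 (3.54e-09) and fell by 0.48 with PI103 (0.000137). Of 8 tested targets of the hypoxia-inducible factors, which also use ARNT, 4, 3, 2, 4 and 4 fell and 2, 4, 2, 4 and 4 rose in the same order. VEGFA, an angiogenic factor, fell from 236 ± 28.2 CPM to 27.8 ± 2.18 CPM with PI103 (log2 -3.09, edgeR adjusted p = 5.82e-13) and to 86.5 ± 16.8 CPM with oxozeaenol (-1.45, 3.98e-08) (SD, n = 4). PDK1, a pyruvate dehydrogenase kinase, fell by 1.68 with PI103 (2.96e-13) and stood at -0.15 with oxozeaenol (0.156).

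Of 11 tested NRF2 targets, 7, 6, 4, 6 and 6 fell and 0, 4, 4, 1 and 2 rose, in the same order of treatments. Beside these and the enzyme counts below, 25.2% to 32.6% of all tested genes fell and 25.7% to 32.2% rose. HMOX1, haem oxygenase, rose from 48.6 ± 4.59 CPM to 182 ± 28.8 CPM with PD0325901 (SD, n = 4; log2 1.91, edgeR adjusted p = 1.71e-12) and fell by 0.64 with PI103 (6.73e-05). TXNRD1, thioredoxin reductase, fell in all 5, with log2 differences from -1.52 to -0.76. Of 8 listed enzymes of tryptophan metabolism, IDO2, TDO2, KYNU and IL4I1 did not pass the filter. Of the 4 tested, 0 rose with any treatment by edgeR or DESeq2, and 1, 2, 1, 1 and 2 fell. That count does not cover the untested genes, which were near the floor. From control to PD0325901, TDO2 went from 0 to 0.227 ± 0.297 CPM (SD, n = 4), with an SD above its mean. KYNU went from 0.0354 ± 0.0138 to 0.13 ± 0.0698 CPM, and IL4I1 from 0.0573 ± 0.0394 to 0.0755 ± 0.0437 CPM. IDO2 had no counts. KMO, kynurenine monooxygenase, fell by 1.78 with oxozeaenol (edgeR adjusted p = 2.24e-05) and fell by 2.11 in PI103+oxozeaenol (2.03e-06), and stood at 0.00 with PI103 (0.991). AADAT, which forms kynurenic acid, fell by 0.65 with PI103 (0.000298) and stood at -0.01 with oxozeaenol (0.944).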

How the data were processed

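RNA-seq libraries were made from AGS cells with an Illumina stranded mRNA kit from 0.8 µg of total RNA, per the labels' protocols. The authors deposited 1 table of whole-number read counts per gene, not normalized, made on GRCh38 per the submitters' processing notes. The aligner, counter and annotation are not given in the sources used here. Reads with no feature (4.24 to 8.57%), ambiguous reads (1.57 to 2.01%) and reads not uniquely placed (4.64 to 6.06%) were set apart from gene totals. Groups came from sample titles, since the treatment field numbers compound names upward in later replicates.

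Counts were filtered with filterByExpr, TMM-normalized and fitted over all 24 libraries with edgeR 4.0.16 (robust quasi-likelihood F test, R 4.3.3, limma 3.58.1). Benjamini-Hochberg adjustment ran over 13947 genes in each of 15 contrasts, with a threshold of 0.05. CPM used TMM library sizes, and log2 CPM a prior count of 2. DESeq2 1.42.0 and RLE normalization, no low-count filter, a tested log2 change above 1, fits to the compared groups, the replicate block, and leaving out libraries were alternatives. The design text calls the 4 libraries of a group biological replicates. In the main fit the p-values rest on the spread between cultures within groups, pooled over all 6 groups. The batch entered only under the replicate block. Likeness to CYP1A1 was ranked among genes with a mean of at least 1 CPM.

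Replicate numbers are batch numbers in the labels and so pair the samples. Deviations from the group mean correlated at a mean r of 0.12 over 60 same-number pairs and -0.04 over 180 others.

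The members, gene lists and contrasts were chosen with earlier results of these data known. Named genes are the 7 members, every tested gene of the list of other AHR targets, from each other list the 2 with the lowest adjusted p, and the 5 most like CYP1A1. Genes named for replicate 2 of PI103+PD0325901 were chosen after their values were seen.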

Additional observations from a re-analysis of the deposited data

Results flagged for a closer look

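Each of 6 tested members in each of 6 groups was examined for a library far from the other libraries of its group. Of these 36 sets, 2 stood out by Dixon's criterion (gap to the nearest library over the whole range, 95% critical value). Chance gives about 1 in 20, so a number of this size is near what chance gives. The sets share the same 24 libraries and are not independent. CYP1A1 in PI103+PD0325901 replicate 2 was at 29.4 CPM, with the nearest library at 6.67 CPM and a gap over range of 0.964. CYP1A1 was chosen on a comparison that includes this library, so its gap is a description and not a test. TIPARP in control replicate 1 was at 83.1 CPM, with the nearest library at 76.5 CPM and a gap over range of 0.89.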

How the results depend on the processing

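Counts of passing members are over the 5 tested members other than CYP1A1. Requiring a change above 1 on the log2 scale left 2 with PD0325901, 2 with PI103+oxozeaenol, 2 with PI103+PD0325901, 1 with oxozeaenol and 0 with PI103 against control, and 0 in each of the 10 contrasts between treatments. It left 0.0359% to 11% of all genes. With the replicate block, 2 passed for PI103+oxozeaenol against oxozeaenol, 2 for PI103+PD0325901 against PD0325901, 2 against the mean of its single agents and 2 against PI103+oxozeaenol; the block moved no other count by over 1.5 times. Over all genes it gave 997 in place of 555 for PI103+oxozeaenol against the mean. DESeq2 gave 2 for PI103+PD0325901 against PD0325901 and 2 against the mean. With no filter, 0 passed for PI103+oxozeaenol against oxozeaenol. Fits to the compared groups only gave 2 for PI103+oxozeaenol against oxozeaenol, 0 for PI103+PD0325901 against PD0325901 and 1 for oxozeaenol against PD0325901. Leaving out all 6 libraries of replicate 2, an alternative added after seeing the data, gave 2 for PI103+PD0325901 against PD0325901, 0 against the mean and 1 for oxozeaenol against PD0325901. With 1 library left out, counts against control ran from 2 to 3 for PI103, 4 to 4 for PD0325901, 4 to 5 for oxozeaenol, 4 to 5 for PI103+oxozeaenol and 4 to 4 for PI103+PD0325901. They ran from 0 to 1 for PI103+oxozeaenol against oxozeaenol, 2 to 3 against PI103 and 0 to 0 against the mean. They ran from 0 to 2 for PI103+PD0325901 against PD0325901, 3 to 3 against PI103, 0 to 2 against the mean and 1 to 2 against PI103+oxozeaenol. They ran from 1 to 2 for oxozeaenol against PD0325901, 3 to 3 for oxozeaenol against PI103 and 3 to 3 for PD0325901 against PI103. The ARNT difference with PD0325901 turned to -0.01 without PD0325901 replicate 2 (highest with 1 library left out 0.14) and to -0.03 without all replicate 2 libraries. RLE normalization moved no count and shifted the median of all genes by at most 0.008 on the log2 scale. The cause of these changes was not tested. AHRR and CYP1A1 with PI103 rest on few counts, which limits their precision.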
